A study of Homo sapiens with 10 samples.

Results

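The OE-only peaks were the CTCF peaks called in HEK-293T cells overexpressing CGGBP1 (OE) that overlapped no peak called in cells with endogenous CGGBP1 (CT) or with CGGBP1 knockdown (KD). They were chosen by these peak overlaps, as the intervals present in both deposited lists of exclusive OE peaks, the one made against CT and the one made against KD. This gave 16378 of the 47216 OE peaks, and recomputing the overlaps from the full CT, KD and OE lists gave the same 16378 intervals. HEK-293T is an established human embryonic kidney cell line. CT cells carried a non-targeting shRNA and KD cells an shRNA against CGGBP1, both selected with puromycin at 10 ug/ml. OE cells were transduced with a lentivirus carrying CGGBP1 cDNA, and no puromycin selection is stated for them. CTCF ChIP-seq gave 1 library per condition. Histone marks (H3K4me3, H3K9me3, H3K27me3) were profiled in CT and KD cells but not in OE cells, and the condition of the cells behind the 1 input library is not given. With 1 library per condition no difference between conditions was tested, and batch, vector, selection and CGGBP1 level cannot be told apart.

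CTCF is a zinc-finger protein that binds a long, well-defined DNA motif, holds cohesin at the bases of chromatin loops and acts at insulators. CGGBP1 is a small DNA-binding protein named for its binding to CGG repeats, and it also binds interspersed repeats. The experiment asked how the level of CGGBP1 bears on where CTCF sits in the genome, at its motif or in repeats. Several kinds of repeats matter below. Alpha satellite is the tandem repeat of human centromeres, built of monomers of about 171 bp, some of which carry the CENP-B box bound by the centromere protein CENP-B. GGAAT repeats are the simple satellite of pericentromeric blocks and of the long arm of chromosome Y. Alu elements are short interspersed repeats that descend from the 7SL RNA of the signal recognition particle.

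Of all OE peaks, 57.6% overlapped no CT peak, 37.9% overlapped no KD peak and 34.7% overlapped neither, which is the share the rule selects and is given as a description. The remaining OE peaks comprised 18500 that overlapped peaks in both CT and KD, 10838 that overlapped a KD peak only and 1500 that overlapped a CT peak only. For comparison, 19918 of 42978 CT peaks and 15269 of 47632 KD peaks overlapped no peak of either other condition. Per the labels, the OE list was called at a looser p threshold (0.005) than the CT and KD lists (0.0025). The part of that difference in the number of OE-only peaks was not tested. Its part in the comparisons of OE-only peaks with other classes below was not tested either.

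Sequence showed what the OE-only peaks consisted of. The peaks were sorted by 2 properties that the rule did not use, the presence of a CTCF site and repeated sequence. A CTCF site was a match at p below 0.0001 to a 14-column matrix learnt from repeat-masked peaks shared by CT, KD and OE, whose most frequent bases read CCACCAGGGGGCAC. A peak was counted as repeated when at least 50% of its bases lay in 24-base words present at least 10 times in hg38. This measure finds young repeats better than old ones, so peaks counted as not repeated can still hold older repeats. Of the OE-only peaks, 2460 had a site and were not repeated, 9149 (55.9%) had neither a site nor repeated sequence, 1368 (8.35%) were repeated with a tandem period of 171 bp, and 3401 (20.8%) were repeated without that period. One peak with neither a site nor repeated sequence, one with the 171-bp period and one made of GGAAT repeats are printed whole from hg38 (plus strand) as examples. The peak with neither property was picked by GC content among those with a repeat-masked OE peak (522 of 9149). It overlapped H3K4me3 of CT and lay 393 bp from a CT or KD peak, so it does not stand for the whole group. The other examples were picked for the highest self-identity of their tandem repeat.
chr21:11703786-11704028, 171-bp period, no gene: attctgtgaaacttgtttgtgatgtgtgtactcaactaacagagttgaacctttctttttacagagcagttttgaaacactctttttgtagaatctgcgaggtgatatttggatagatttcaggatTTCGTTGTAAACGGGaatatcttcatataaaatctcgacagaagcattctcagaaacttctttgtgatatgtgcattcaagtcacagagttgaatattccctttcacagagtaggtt
chr1:150875438-150875664, no site and not repeated, intron of ARNT: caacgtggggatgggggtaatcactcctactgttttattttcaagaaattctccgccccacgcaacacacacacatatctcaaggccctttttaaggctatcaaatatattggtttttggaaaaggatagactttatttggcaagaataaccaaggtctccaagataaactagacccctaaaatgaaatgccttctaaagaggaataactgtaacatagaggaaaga
chrY:56678077-56678344, GGAAT repeats: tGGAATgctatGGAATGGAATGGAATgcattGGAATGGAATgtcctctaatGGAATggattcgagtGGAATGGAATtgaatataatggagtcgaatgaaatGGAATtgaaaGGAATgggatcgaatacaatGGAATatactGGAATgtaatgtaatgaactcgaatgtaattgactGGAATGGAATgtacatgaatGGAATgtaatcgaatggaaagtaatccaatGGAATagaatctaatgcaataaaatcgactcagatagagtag
Capitals mark the specified stretch of the CENP-B box in the first sequence and each GGAAT in the last, which held 17 of them. The 1000 bp around the centre of the first peak, a longer stretch than the one printed, were compared with themselves after a shift of 171 bp. The share of equal bases was 0.76.

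The strongest CTCF sites within OE-only peaks are printed with 18 bases on either side, since they match the most frequent bases of the matrix almost throughout, with the 14 bases of the match in capitals.
chr10:11441-11490 (plus strand, no gene): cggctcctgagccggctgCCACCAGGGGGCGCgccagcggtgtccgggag
chr11:65027779-65027828 (plus strand, intron of SNX15 and of ARL2-SNX15): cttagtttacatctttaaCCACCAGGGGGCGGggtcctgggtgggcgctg
chr18:57558047-57558096 (plus strand, intron of FECH): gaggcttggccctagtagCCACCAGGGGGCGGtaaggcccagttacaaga
chr1:30782476-30782525 (plus strand, no gene): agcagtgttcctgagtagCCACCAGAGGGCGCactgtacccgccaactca
Their matrix scores were 23.72, 23.13, 23.13 and 22.99 log2 units, where 8.31 was the threshold at p below 0.0001. All 4 peaks were also called from reads mapped to repeat-masked hg38. Such sites were the exception among OE-only peaks, as the following comparisons show.

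A CTCF site was found in 17.7% of OE-only peaks (2893 of 16378, exact 95% interval 17.1 to 18.3) and in 79.1% of the other OE peaks. The difference was -61.4 percentage points (95% interval -62.2 to -60.7). Intervals here and below treat peaks as independent and cover counting error over peaks of 1 library only. The share was 13.5% in 29370 windows of 273 bp laid across hg38 every 100 kb, which give the level found without regard to any peak. At the stricter threshold of p below 0.00001, a site was present in 7.47% of OE-only peaks, 64.3% of the other OE peaks and 2.22% of the windows. A match to the usual CTCF consensus with at most 1 mismatch, which does not depend on the learnt matrix, was present in 5.69%, 50.6% and 1.40%, respectively. OE-only peaks therefore lay far below the other peaks of the same library and above the genome windows under all 3 definitions. A low share was not particular to them, since a site was present in 15.4% of CT-only peaks (5.25% at the stricter threshold and 3.78% by the consensus), below the OE-only share each time. KD-only peaks had a site in 41.1% (25.8% and 19.1%) and OE peaks shared with CT in 465 of 1500 cases (20.9% and 14.7%).

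**Figure D1:**
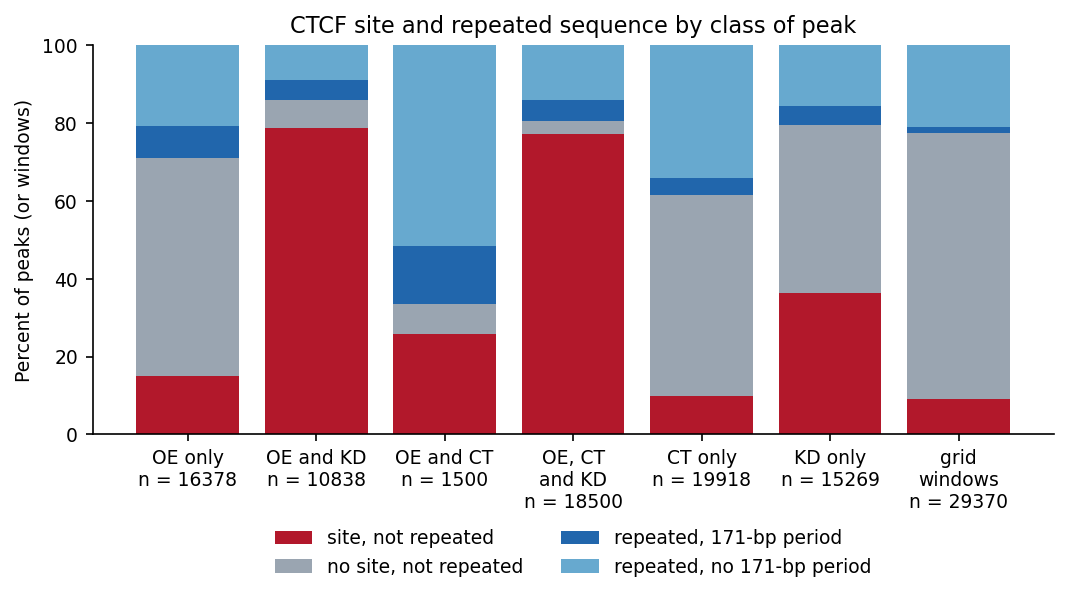
Percent of peaks (bars, stacked to the whole class) with a CTCF site and no repeated sequence, with neither, repeated with a 171-bp period, and repeated without it, for the 4 classes of OE peaks, for CT-only and KD-only peaks and for genome windows. Peaks with neither a site nor repeats made up 55.9% of OE-only peaks and 3.24% of OE peaks shared with CT and KD.

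Where OE-only peaks had a site, the site matched the matrix less well and lay less often at the centre. The median score of the best site was 12.15 log2 units in the 2893 OE-only peaks with a site, 16.32 in OE peaks shared with KD only, 17.19 in those shared with CT and KD, and 10.18 in the genome windows. Sites within 50 bp of the centre accounted for 52.4% (50.6 to 54.3) of sites in OE-only peaks, against 77.1% and 78.7% in these shared classes and 37.9% in the windows. By both measures the OE-only sites stood between shared sites and genome windows. Column by column, the sites of OE-only peaks kept the invariant C of column 2 (98.1%) and G of column 7 (98.0%) as the sites shared with CT and KD did (99.2% and 99.3%). Larger differences were found for the C of columns 12 (61.4% against 77.5%), 4 (46.8% against 61.7%), 1 (68.8% against 80.1%) and 14 (42.2% against 52.0%). The A of columns 6 (77.6% against 89.0%) and 3 (68.5% against 79.0%) and the G of column 11 (78.2% against 88.4%) also differed. The least constrained letter, the C of column 5, differed little (37.6% against 38.7%), as did the G of column 9 (53.6% against 53.2%) and the A of column 13 (48.3% against 47.4%). Both sets were picked by the same score threshold, which itself favours the most constrained letters. The matrix was also learnt from repeat-masked peaks shared by CT, KD and OE. Scores and letters therefore favour the class shared with CT and KD, by an amount that was not tested.

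**Figure D2:**
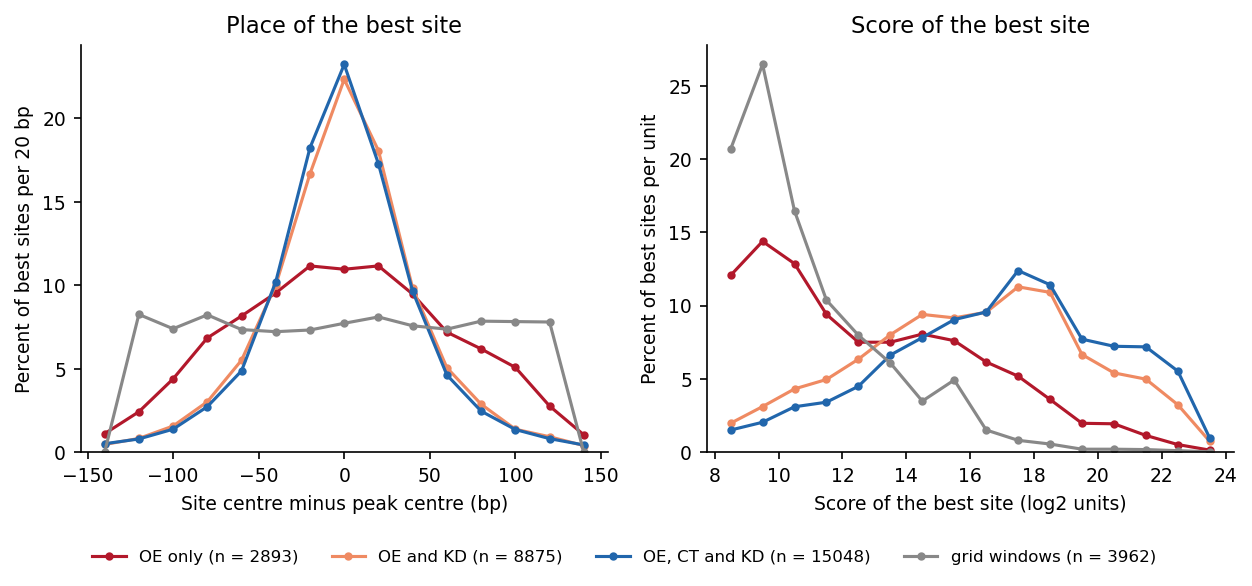
Distance from the centre of the best CTCF site to the peak centre in bp (left, percent of sites per 20 bp) and score of the best site in log2 units (right, percent of sites per unit), for OE-only peaks, OE peaks shared with KD, OE peaks shared with CT and KD, and genome windows. OE-only sites were spread more widely about the centre (52.4% within 50 bp) and peaked at lower scores (median 12.15).

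The 2460 OE-only peaks with a site and without repeats differed from the other members in composition and position. They had a mean GC content of 46.7% ± 8.79 (SD, n = 2460 peaks), against 40.4% ± 7.21 over all OE-only peaks, and 8.50% of them lay within 1 kb of the transcription start site (TSS) of a protein-coding transcript, against 3.83% of all OE-only peaks. H3K4me3, the mark of active promoters, covered 16.5% (15.1 to 18.1) of them in CT and 17.8% in KD. H3K9me3 covered 7 of them in CT (0.285%, 0.114 to 0.585) and was not detected in KD. By position, 5.67% fell in exons of protein-coding genes, 47.8% in introns and 32.5% in no gene.

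The largest group was the 9149 OE-only peaks with neither a site nor repeated sequence by the 24-base words, which can miss older repeats. A repeat-masked OE peak overlapped 5.71% of this group. Their share of 55.9% was lower than the 68.5% of genome windows with neither property, but well above the 7.15% of OE peaks shared with KD and the 3.24% of OE peaks shared with CT and KD. CT-only (51.7%) and KD-only peaks (43.1%) held comparably large shares. The median peak of this group was 248 bp wide, had a GC content near the genome mean (38.8% ± 6.71, SD) and held no 24-base word with more than 1 copy. H3K4me3 of CT covered 9.92% (9.32 to 10.6) of the group, above the 2.43% of all genome windows. Introns held 49.4% of the group and 41.7% of all genome windows. These 2 window shares include windows that were repeated or had a site. Runs of 8 A or 8 T were present in 6.78% (6.27 to 7.31) of these OE-only peaks. Among peaks and windows with neither property, the share was 16.7% in CT-only peaks, 14.1% in KD-only peaks and 13.5% in windows. The other classes of OE peaks with neither property were as low, with 6.58% in those shared with KD, 4.42% in those shared with CT and 7.35% in those shared with both, so the low share was common to the OE list. Median widths of these OE-only, CT-only and KD-only peaks and of these windows differed (248 bp, 302 bp, 259 bp and 273 bp, respectively). Mean GC content differed as well (38.8%, 37.1%, 37.4% and 38.9%). The part of width and GC content in the difference in runs was not tested.

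Repeated bases made up a mean of 30.2% ± 42.0 (SD, n = 16378 peaks) of each OE-only peak and 21.4% of each of the other OE peaks, a difference of 8.84 percentage points (8.06 to 9.61). The other classes of OE peaks were not alike, with means of 15.7% in peaks shared with KD, 66.4% in peaks shared with CT and 21.0% in peaks shared with both. CT-only peaks had a mean of 39.3%, KD-only peaks 22.3% and genome windows 23.3%. OE-only peaks thus stood above the windows and the KD-only peaks and below the CT-only peaks.

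Part of the repeated OE-only peaks had tandem repetition at the length of the alpha satellite monomer. The period of 171 bp was the most frequent one in the tandem repeats of the genome windows, and it was called where the best shift of the surrounding 1000 bp onto itself was 169 to 173 bp with at least 50% equal bases. It was present at 8.35% (7.93 to 8.79) of OE-only peaks, 5.73% of the other OE peaks (difference 2.62 percentage points, 2.13 to 3.12), 4.21% of CT-only peaks, 5.08% of KD-only peaks and 1.43% of genome windows. Among the other OE peaks, those shared with CT had the period more often than OE-only peaks, at 15.1% (13.4 to 17.0). The best shift was exactly 171 bp at 1214 of these 1368 OE-only peaks. A CENP-B box occurred in 7.48% of OE-only peaks and 7.35% of the other OE peaks, a difference of 0.128 percentage points whose interval (-0.369 to 0.625) spans zero, and in 1.21% of the windows. Either feature was present in 1964 OE-only peaks, and 629 of the 1368 peaks with the period also held the box.

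The most frequent words of site-free OE-only peaks were each held by few of them. Of 13485 OE-only peaks without a site, the 5 most frequent 24-base words, 1 per group of overlapping words, are printed to show the repeat by its letters. Words were counted as overlapping when they shared a part of 12 bases, and words 3 to 5 still share a shorter stretch.
word 1: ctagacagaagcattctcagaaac
word 2: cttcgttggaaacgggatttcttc
word 3: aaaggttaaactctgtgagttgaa
word 4: gtgagttgaatacacacaacacaa
word 5: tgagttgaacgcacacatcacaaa
The first was in 331 of these peaks, 274 of which had the 171-bp period, and occurred 40702 times in hg38. The second was in 312 peaks and occurred 27042 times. Its own letters spell the CENP-B box, so the presence of the box in all 312 was fixed in advance. The rest were in 278, 275 and 266 peaks. Of the 13485 site-free peaks, 12512 held none of the 5. The first word was present in 2.18% of all OE-only peaks, 1.37% of OE peaks shared with KD, 5.33% of those shared with CT, 1.81% of those shared with both and 0.320% of windows.

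The 171-bp peaks lay outside genes. On chromosomes 1 to 22, X and Y, all 1324 of them were in no annotated gene. None of the 1368 had a counterpart called from repeat-masked reads, a count largely fixed by the masking, which leaves annotated repeats out of the reference. H3K9me3, the mark of constitutive heterochromatin, covered 9.43% of them in CT (129 of 1368), against 77.7% of the 171-bp peaks shared by OE, CT and KD (764 of 983), 35.7% of those shared with CT only, 27.8% of those shared with KD only and 8.63% of those in CT only. Input peaks covered 4.68% of the OE-only 171-bp peaks and 506 of the 983 shared by all conditions. Both H3K9me3 and input were thus most frequent at the satellite peaks shared by all conditions, and the part of input signal in the overlap with H3K9me3 was not tested. Reads from near-identical copies cannot be placed uniquely, so a position inside a satellite array names the array rather than the copy.

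Other repeated kinds were fewer. A CENP-B box without the period was found in 594 repeated OE-only peaks (3.63%), similarity to 7SL RNA as a trace of Alu in 121 (0.739%), GGAAT repeats in 96 (0.586%), and none of these in 2590 (15.8%). Among all OE-only peaks 7SL similarity reached 1.39%, close to the other OE peaks (1.47%, difference -0.0736 percentage points, -0.298 to 0.150) and below CT-only peaks (7.44%) and windows (8.06%). Of the 96 GGAAT peaks, 46 were placed on chromosome Y of hg38, and H3K9me3 of CT covered 4 of the 96. Their place is uncertain where copies are near-identical. Of 153 OE-only peaks with another tandem period, 89 repeated at a multiple of 5 bp, 48 of all at 30 bp, and 54 lay on chromosome Y. CGG repeats, the sequence that gave CGGBP1 its name, were nearly absent, as 3 CGG in a row occurred in 10 OE-only peaks (0.0611%), 0.175% of the other OE peaks and 0.0919% of windows.

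The lists called from repeat-masked reads came from the same libraries and are a second mapping, not a replicate. A repeat-masked OE peak overlapped 6.89% of OE-only peaks (1129, 6.51 to 7.29) and 57.1% of the other OE peaks. Repeat-masked CT or KD peaks were present at 1.07% and 1.52% of OE-only peaks, so a few OE-only peaks did have a peak in another condition under the other mapping. Among the 1129, a CTCF site was present in 48.2% (45.2 to 51.1) and H3K4me3 of CT at 22.7%. The 171-bp period was present in none, which the masking largely fixes, since it leaves annotated repeats out of the reference. Of the 16378 OE-only peaks, 811 had a repeat-masked OE peak, no repeat-masked CT or KD peak and no input peak, were not repeated and lay on chromosomes 1 to 22, X or Y. A site was present in 339 of these (41.8%, 38.4 to 45.3), and 67 lay within 1 kb of a TSS, at 74 genes.

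The histone marks of CT and KD cells, which the rule did not use, were rarer at OE-only peaks than at the other OE peaks. H3K4me3 of CT covered 10.8% (10.3 to 11.3) of OE-only peaks and 42.5% of the others, a difference of -31.8 percentage points (-32.5 to -31.0), and H3K4me3 of KD covered 10.9% and 43.2%. CT-only peaks (5.41%) and genome windows (2.43%) had less H3K4me3 of CT than OE-only peaks, and KD-only peaks (13.7%) had more. The marked OE-only peaks were largely shared by both conditions, as 1456 had H3K4me3 in CT and KD, 308 in CT alone and 337 in KD alone. H3K9me3 covered 3.99% of OE-only peaks in CT and 2.88% in KD, against 12.3% and 12.1% of the others. CT-only peaks had nearly the same H3K9me3 (3.79% and 2.84%) and KD-only peaks less (1.70% and 1.52%). H3K27me3, the Polycomb mark, covered 3.35% and 2.06%, against 11.4% and 10.6%, with 1.08% and 0.798% at CT-only peaks and 1.21% and 1.16% at KD-only peaks. The H3K9me3 and H3K27me3 libraries are named here by their titles, because the labels and the methods give opposite antibodies for them. Input peaks covered 1.31% of OE-only peaks and 7.06% of the other OE peaks. Of the 548 OE-only peaks with H3K27me3 of CT, 92.7% were repeated and 27.4% had the 171-bp period, so most of these peaks lay in repeats.

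**Figure D3:**
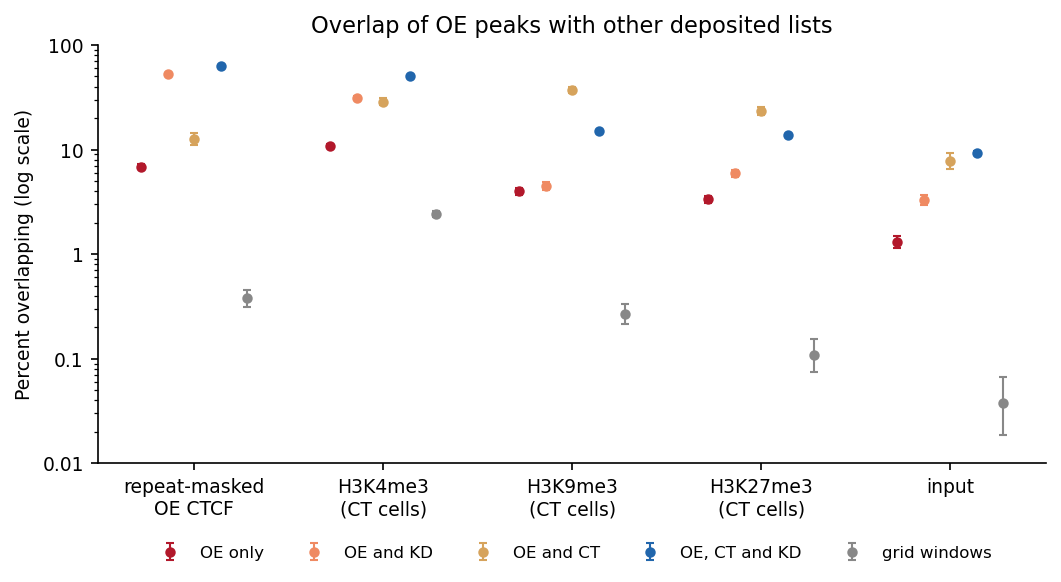
Percent of peaks or windows (log scale, points with exact 95% intervals) that overlapped repeat-masked OE CTCF peaks, H3K4me3, H3K9me3 and H3K27me3 peaks of CT cells and input peaks, for the 4 classes of OE peaks and genome windows. OE-only peaks lay below the other OE classes and above the windows for these lists, although for H3K9me3 their interval (3.99%, 3.69 to 4.30) overlapped that of peaks shared with KD (4.47%, 4.08 to 4.87).

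OE-only peaks were narrower than the OE peaks shared with KD, and near in width to those shared with CT only. The number of reads behind a peak is not known from the lists. OE-only peaks had a median width of 248 bp, against 274 bp for OE peaks shared with KD, 250 bp for those shared with CT and 301 bp for those shared with both. Peaks of up to 234 bp were OE-only in 52.6% of cases, those of 235 to 273 bp in 39.7%, those of 274 to 330 bp in 27.5% and those of 331 bp and more in 18.4%. The lower share of sites was present at all widths, with 16.4%, 16.1%, 18.8% and 23.2% of OE-only peaks in these 4 classes having a site against 71.0%, 76.4%, 82.8% and 82.6% of the other OE peaks. The share of OE-only peaks overlapping H3K4me3 of CT was 9.06% in the narrowest class and 15.4% in the widest.

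Distance to the nearest CT or KD peak shows how the members lay relative to the rule. The gap ranged from 1 bp (1 peak) to 958500 bp, with a median of 11546 bp and middle 50% of peaks between 4417.5 and 25884 bp, and 19 peaks lay on sequences with no CT or KD peak. Within 100 bp there were 96 OE-only peaks and within 1000 bp 1274. Just outside the rule, 13 of the other OE peaks overlapped a CT or KD peak by at most 10 bp and 61 by at most 50 bp, where the median overlap was 260 bp. OE-only peaks at a gap of 100 to 1000 bp were repeated in 57.3% (54.4 to 60.1) of cases, against 38.6% at 1 to 10 kb and 18.2% (17.3 to 19.0) at 10 to 100 kb. Sites varied less with distance, from 15.7% through 17.6% to 18.1%. The classes at the ends were small and broke the trend in repeats, with 37.5% repeated (27.8 to 48.0) among the 96 peaks at up to 100 bp and 31.3% (25.2 to 38.0) among 217 at over 100 kb.

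**Figure D4:**
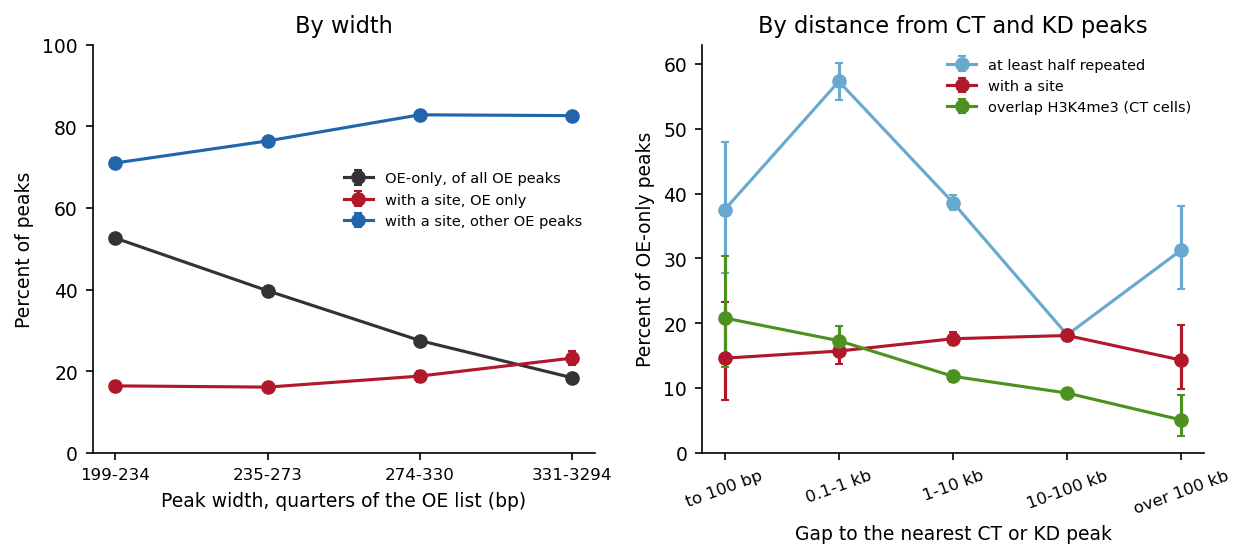
Left, percent of OE peaks that were OE-only and percent of OE-only and other OE peaks with a CTCF site, in 4 classes of peak width in bp. Right, percent of OE-only peaks that were repeated, had a site or overlapped H3K4me3 of CT, by gap to the nearest CT or KD peak. Points carry exact 95% intervals. The OE-only share fell from 52.6% in the narrowest to 18.4% in the widest class.

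Along the chromosomes, the OE-only share of OE peaks was highest on chromosome Y (54.6%, 65 of 119, 45.2 to 63.8), followed by chromosomes 6 (43.2%) and 13 (40.8%). It was lowest on chromosomes 19 (22.8%), 17 (24.4%), 4 (26.2%) and 15 (26.7%), of which the first 2 are gene-dense. On chromosome Y, 84.6% of OE-only peaks were repeated and 4.62% had a site. Reads from near-identical copies cannot be placed uniquely, so chromosome Y here names a place in hg38. Whether these cells carry a chromosome Y is not stated in the paper. The 171-bp peaks were most numerous on chromosomes 7 (127), 18 (125), 20 (105), 2 (94) and 21 (88), and chromosome 12 had 10. Repeated peaks accounted for 55.1% of OE-only peaks on chromosome 18 and 55.0% on chromosome 21, against 19.1% on chromosome 6. Unlocalised and unplaced sequences gave OE-only shares of 42.3% and 41.8%, and alternate loci 17.3%.

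**Figure D5:**
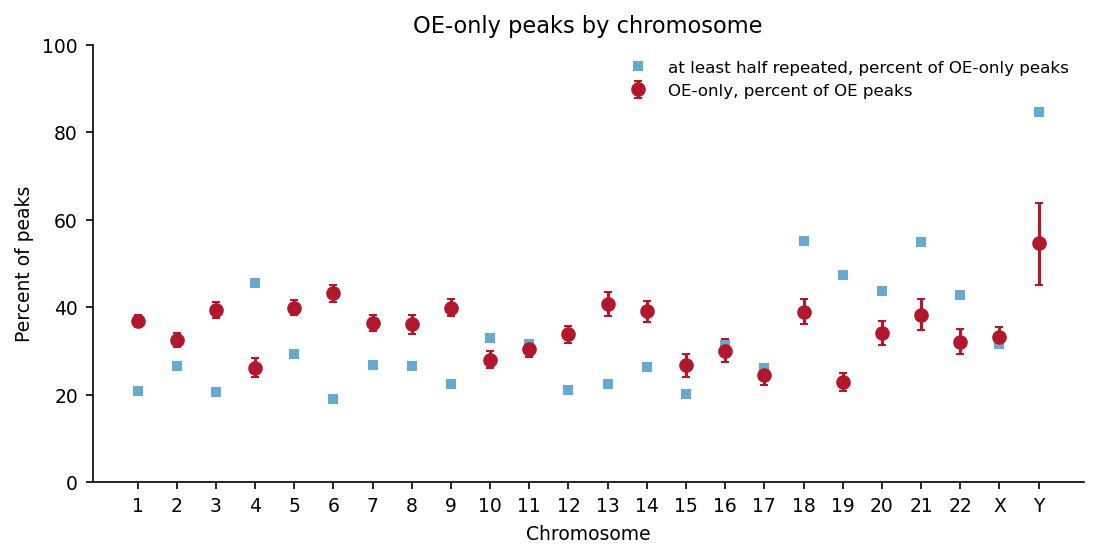
Percent of OE peaks that were OE-only (circles, exact 95% intervals) and percent of OE-only peaks that were repeated (squares), by chromosome. Chromosome Y had the highest value of both (54.6% and 84.6%), and chromosome 19 the lowest OE-only share (22.8%). Chromosomes are those of hg38, and the place of repeated peaks is uncertain.

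Most 10-kb windows with an OE-only peak held only 1, and the numbers expected from the density of OE-only peaks alone were not computed. Of 10-kb windows with any, 14315 held 1, 736 held 2, 57 held 3 and the rest between 4 and 7. The densest, chr8:85650001-85660000 with 7 peaks, covers the tandem REXO1L genes REXO1L3P and REXO1L1P. All 7 peaks there were repeated, 5 overlapped H3K4me3 of CT and 2 an input peak. The window chr21:8240001-8250000 held 6 and chr13:16250001-16260000 held 5, which all had the 171-bp period. Neighbouring windows of chromosome Y from 56720001 held 5 each, all repeated, and chr4:190080001-190090000 held 4 at DUX4L genes, the tandem array whose retrogene DUX4 is known from muscular dystrophy. Copies of these arrays are near-identical, so their peaks are uncertain in position.

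By position, OE-only peaks differed little from the genome windows. Of 16023 OE-only peaks on chromosomes 1 to 22, X and Y, 3.07% had their centre in an exon of a protein-coding gene, 39.5% in an intron, 13.8% in another gene and 43.7% in none, against 2.88%, 41.7%, 16.1% and 39.4% of windows. Centres within 1 kb of a protein-coding TSS made up 3.83% (627, 3.54 to 4.13) of OE-only peaks, 6.04% of the other OE peaks and 2.29% of windows. The 627 promoter peaks differed from the rest of the members, with a site in 34.9% (31.2 to 38.8), repeated sequence in 5.10% and H3K4me3 of CT at 388 of them. In all, 675 of 20033 protein-coding genes had an OE-only peak within 1 kb of a TSS and 4326 had one in the gene body.

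The genes with the strongest sites among the promoter peaks of the 811 were named by a rule that took the first 20 by site score. Their sites are printed where the 50 bases lie outside exons, with the 14-base match in capitals and 18 bases on either side.
MYCL, chr1:39902389-39902438 (minus strand): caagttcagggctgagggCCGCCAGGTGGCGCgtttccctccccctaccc
ATP6V0C, chr16:2513143-2513192 (plus strand): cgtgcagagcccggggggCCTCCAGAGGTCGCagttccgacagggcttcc
NCOA4, chr10:46030692-46030741 (plus strand): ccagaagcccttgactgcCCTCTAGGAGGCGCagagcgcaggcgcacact
NUP43, chr6:149746266-149746315 (plus strand): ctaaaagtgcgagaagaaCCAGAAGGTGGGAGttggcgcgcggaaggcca
CDKN2B, chr9:22009570-22009619 (plus strand): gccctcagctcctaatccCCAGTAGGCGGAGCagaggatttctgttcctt
RHBDD2, chr7:75881525-75881574 (minus strand): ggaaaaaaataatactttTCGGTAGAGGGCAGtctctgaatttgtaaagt
TMBIM6, chr12:49750912-49750961 (plus strand): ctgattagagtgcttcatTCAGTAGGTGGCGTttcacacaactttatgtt
MYCL encodes a MYC-family transcription factor, and its peak centre lay 113 bp upstream of the TSS with a site score of 20.26. The nearest CT or KD peak was 16985 bp away and H3K4me3 was called there in CT and KD. CDKN2B encodes the cell cycle inhibitor p15, and its peak lay 343 bp upstream with a score of 13.42 and was only 598 bp from a CT or KD peak. NCOA4, the receptor for autophagy of ferritin, had its peak 93 bp upstream with a score of 15.20.

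The other named genes covered unrelated functions. Sites scored 20.03 at SMPD4, a neutral sphingomyelinase, 18.16 at EGLN2, a prolyl hydroxylase of the hypoxia pathway, and 18.11 at the zinc-finger gene ZNF491. None of these 3 peaks overlapped H3K4me3 in either condition. GGT7, of the gamma-glutamyltransferase family, had a score of 17.37, and ATP6V0C, the pore subunit of the vacuolar proton pump, 15.95. UQCRC1, a core subunit of respiratory complex III, scored 15.55, and these 3 peaks overlapped H3K4me3 in CT and KD. SLC3A2 (14.41) encodes a chaperone of amino acid transporters and RDH5 (14.17) a retinol dehydrogenase, both without H3K4me3. ABCE1, which recycles ribosomes, and ANAPC10, of the anaphase-promoting complex, share 1 peak between them (14.33), with H3K4me3 in both conditions. ATP6V0C likewise shares its peak with the gene ENSG00000259784. PHLDB3 (14.16), CAMK2B (13.96), a kinase of calcium signalling, NUP43 (13.49), of the nuclear pore, and TMBIM6 (13.32), an inhibitor of cell death at the endoplasmic reticulum, also overlapped H3K4me3. RHBDD2 (13.40) did not. Of the 20 genes the rule selected, 13 had H3K4me3 at the peak in CT and in KD. The TMBIM6 peak was one of the widest OE-only peaks, at 736 bp, where the widest of all measured 1033 bp on chromosome Y.

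The genes with the most OE-only peaks in their bodies were all long. CNTNAP2, a neurexin-like adhesion protein, held 21 in 2305 kb, GPC5, a glypican, 18, DLG2, a synaptic scaffold, 16, DAB1, an adaptor of reelin signalling, 14, and NAALADL2 13. PCDH9, PARD3B and ROBO1, the Slit receptor, held 12 each, RARB, a retinoic acid receptor, AUTS2 and TENM2 11 each, and EGLN3, RYR2, NKAIN2 and SOX5 10 each. None of these 15 genes had an OE-only peak within 1 kb of a TSS. Density was 0.911 peaks per 100 kb in CNTNAP2 and 1.86 in EGLN3. Both were above the 5.27 per Mb (not per 100 kb) of all protein-coding gene bodies together. In CNTNAP2, 1 of the 21 had a site and 1 was repeated. These genes were picked for their number of OE-only peaks, and OE-only peaks made up 34.7% of all OE peaks. OE-only peaks outnumbered other OE peaks in CNTNAP2 (21 against 10), in NAALADL2 (13 against 3) and in SOX5 (10 against 2). They were nearly as many in AUTS2 (11 against 14) and ROBO1 (12 against 13).

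By density, the first were ENSG00000205236 (6 peaks, 9.94 per 100 kb) and HOXA3 (4 peaks, 8.62 per 100 kb), followed by NBPF19, CTSS, SP1, RASA4, GPR107, NBPF1, SLC25A25 and CCDC200 (8.61 to 6.78 per 100 kb). The homeobox gene HOXA3 had 1 of its 4 OE-only peaks within 1 kb of a TSS, and none of the 4 had a site. All OE-only peaks of the segmentally duplicated NBPF19 (7) and NBPF1 (4) were repeated. ENSG00000205236 overlaps RASA4, so they share peaks.

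OE-only peaks at gene lists relevant to CTCF and CGGBP1 were counted against all protein-coding genes. None of 12 genes of CTCF and cohesin had one within 1 kb of a TSS, where 3.37% of all protein-coding genes did and a count of 0 of 12 allows up to 26.5% (exact 95% interval). Within 1 kb of the gene body, 5 of the 12 had at least 1, against 23.1% of all genes, namely STAG1 (4), STAG2 (2), NIPBL, PDS5B and YY1 (1 each), and the bodies of the 12 genes held 5.10 OE-only peaks per Mb against 5.27 for all. These encode cohesin subunits, the cohesin loader, a cohesin regulator and a loop-associated zinc-finger protein. All 9 peaks were intronic, and only the one at chr3:136717414-136717639 in STAG1 had a site, in repeated sequence. CGGBP1 itself had none, the nearest lying 82.4 kb away. Of its named targets FMR1 had 1 intronic peak without a site, CDKN1A none, with the nearest 8.79 kb away, and DNMT1 none, with the nearest 279 kb away. PGK1 and EEF1A1, whose promoters are common in vectors, had none at a TSS, and PGK1 held 2 in its introns.

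Gene families were counted in the same way. An OE-only peak lay within 1 kb of a TSS at 2 of 86 ribosomal protein genes, 2 of 74 clustered histone genes, 16 of 515 ZNF genes, 1 of 39 HOX genes, 1 of 53 clustered protocadherin genes and 4 of 416 olfactory receptor genes. These shares (2.33%, 2.70%, 3.11%, 2.56%, 1.89% and 0.962%) had exact intervals that included the 3.37% of all genes, except that of the olfactory receptor genes (0.263 to 2.44). Within 1 kb of the gene body the counts were 5, 6, 70, 8, 21 and 9 (5.81%, 8.11%, 13.6%, 20.5%, 39.6% and 2.16%, against 23.1% of all genes), and clustered protocadherin genes share long bodies, so 1 peak can count for several of them. Gene length differs between the lists, from a median of 0.509 kb for histone genes to 110 kb for protocadherin genes against 27.5 kb for all genes, and moves with these counts.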

How the data were processed

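HEK-293T libraries of CTCF ChIP-seq (CT, KD and OE), of 3 histone marks (CT and KD) and of 1 input were used, each as deposited by the authors. The 19 deposited files are peak lists, and their only measurements are genome positions in bp, with no score, fold or coverage. The authors filtered single-end Ion Torrent reads on quality, aligned them over their whole length by bowtie2 against unmasked or repeat-masked hg38, called peaks with MACS2 and separated exclusive peaks with bedtools (versions of these tools not given in the sources used here). For unmasked reads the methods give a p threshold of 0.005, and the labels give 0.0025 for CTCF in CT and KD, 0.005 in OE and 0.001 for the other libraries. Repeat-masked lists were called at 0.001. The number of reads behind a peak is not known, so precision is that of the number of peaks.

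Starts were taken as 0-based. Since the narrowest unmasked peaks are then 1 bp below the stated minimum of 200 bp, 1-based starts remain possible. Parts of peaks past a chromosome end were clipped. Overlap meant at least 1 bp. The CTCF matrix was learnt on 12859 repeat-masked CT peaks shared with KD and OE and scanned on both strands. RepeatMasker was not run, and bases in 24-mers with at least 10 copies in hg38 stand in for it, which finds young repeats better than old ones. Similarity to 7SL RNA required 2 shared 14-mers, and GGAAT repeats required 20% of 5-mers to be rotations of GGAAT or of its complement. The CENP-B box was searched on both strands at its 9 specified bases. Genes and TSS came from GENCODE release 44. Sequences and coordinates are from hg38, counted from 1.

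Shares carry exact Clopper-Pearson 95% intervals and differences normal 95% intervals. The zero limits are the upper bounds of the exact intervals. No test between conditions was possible with 1 library each. Named genes were the 15 with the most OE-only peak centres in the gene body, the 10 with the most per 100 kb among those with at least 3, and the 20 with the highest site scores at promoters as described. Of these and of the fixed gene lists, 2 genes are not reported here. The members, the gene lists and the measures were chosen with earlier results of these data known, and the 171-bp, GGAAT and CENP-B measures after seeing these peaks. Alternatives changed the overlap rule, the site definition, the repeat minimum and the peaks included. Scripts were tested on simulated data. Python 3.11.15 was used with numpy 2.4.6, pandas 2.3.3, numba 0.67.0 and scipy 1.17.1.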

Additional observations from a re-analysis of the deposited data

How the results depend on the processing

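The differences from the other OE peaks in site share and in repeated bases kept their direction under the alternatives run, no alternative was run for the other differences, and with 1 library per condition no library could be left out. The share of OE-only peaks with a site (17.7%) became 7.47% at p below 0.00001, 5.69% with the consensus, 14.9% in the central 200 bp, 16.4% without peaks that had a repeat-masked CT or KD peak and 20.4% in the wider 50% of the list. The difference from the other OE peaks (-61.4 points) became -56.9, -44.9, -60.4, -62.7 and -62.3 under the same changes and -66.4 without input peaks. Repeated bases (30.6% of all bases of OE-only peaks) became 23.6% with at least 100 copies, 28.3% with a gap of at least 1000 bp to CT and KD peaks, 29.7% without input peaks, 29.9% on chromosomes 1 to 22, X and Y, and 31.4% in wider peaks, and the difference from other OE peaks (8.84 points) became 5.65, 6.62, 13.7 without input peaks and 11.3 in wider peaks. The difference in repeated bases thus moved by more than 1.5 times with the copy number minimum and with the input peaks. H3K4me3 of CT (10.8%) became 10.2% with the gap or without input peaks, 13.0% in wider peaks and 17.4% within 1000 bp, H3K9me3 of CT (3.99%) 3.67% without input peaks, 2.74% in wider peaks and 6.04% within 1000 bp, and repeat-masked OE peaks (6.89%) 5.54% without repeat-masked CT or KD peaks and 9.48% in wider peaks. Chosen after seeing the data, an identity of at least 0.45 or 0.4 moved the 171-bp share from 8.35% to 12.4% and 13.9%, and the gap moved it to 7.39%. Peaks within 5 kb of a TSS made up 11.8%. The cause of these changes was not tested. The other 29 values, among them the number of OE-only peaks, moved by less than their counting error or, for counts, less than 1.5 times, as did the counts of the 15 genes with the most OE-only peaks when a gap of at least 1000 bp was required. No reads per peak limit any of these values in a known way, as the lists hold none.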

Other observations

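The classes of OE peaks were unequal in a way that the pairwise lists do not show. Of the OE peaks without a CT peak, 10838 had a KD peak, and of those without a KD peak 1500 had a CT peak. The 1500 were the most repeated class of all, with 66.4% of bases repeated on average, a 171-bp period at 15.1% and H3K9me3 of CT at 36.9% (34.5 to 39.4), against 3.99% of OE-only peaks. The OE peaks shared with KD were the least repeated, at 15.7%, and had a site in 81.9%. OE-only peaks with a site were closest in site score to CT-only peaks (median 12.15 and 11.28 log2 units), and KD-only sites scored higher (14.62). None of these comparisons has a replicate.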
